A study of Homo sapiens with 6 samples.

Results

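HCT116 cells edited with one CRISPR guide against MUC3A (KO2) were compared with HCT116 cells edited with another guide against the same gene (KO1), by poly(A) RNA sequencing. HCT116 is a human colorectal carcinoma cell line. Both knockouts were made with the lentiCRISPR v2 vector, which carries Cas9 and the guide, at a multiplicity of infection of 10, and both went through 72 h of puromycin at 2 µg/mL. The study holds 6 libraries in 3 groups of 2, namely KO2, KO1 and a control group (WT), and 4 of the 6 enter the comparison directly. The labels describe WT both as wild type and as negative control, and a scrambled virus is mentioned in the protocol, so whether WT cells had been infected is not settled by them. They do not say whether a knockout is a clone or a pool. Nothing in them says that the 2 libraries of a group are separate cultures, so p-values reflect only how far these libraries differ, and that spread may be technical.

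Genes were kept where the 4 knockout libraries summed to 40 reads or more. Of 15284 genes listed for both knockouts, 12470 met this minimum and 2814 did not. Just inside it, 110 genes had 40 to 44 reads, and just outside it 103 genes had 35 to 39. In each group 1 library has a name starting with HCT and 1 a name starting with HCT116, called the HCT and the HCT116 library here. What the prefix marks is not stated. Values of a group are given for its HCT library and then its HCT116 library.

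The product of MUC3A is a mucin anchored in the membrane of intestinal epithelial cells, whose heavily glycosylated extracellular part contributes to the cell-surface glycocalyx. Cas9 cuts DNA next to a PAM, and repair of the cut can leave small insertions or deletions that shift the reading frame. Cells edited at different sites of one gene share the target and differ in the guide.

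The guides are shown because they are what the 2 knockouts were designed to differ in. They are written with the guide in lower case and the adjoining PAM of the genome in capitals, as matched to GENCODE transcripts on GRCh38:
KO2: ttctccacactccagagaccTGG
KO1: gaaggcaaacttggacgtcgGGG
The KO2 guide lies at chr7:100951917-100951936 on the strand of the transcript, and the KO1 guide at chr7:100952090-100952109 on the opposite strand. Both lie in exon 2 of MUC3A, an exon of 8805 bases, inside the coding sequence of its annotated transcripts of 12 and 11 exons. The predicted cut of the KO2 guide follows 154 coding bases and that of the KO1 guide 313, so the cuts are 159 bases apart. In the 12-exon transcript these are 1.54% and 3.14% of the coding length. Among 206694 annotated transcripts, the KO2 guide also matched RTRAF, an RNA-binding protein gene, with 3 mismatches and a PAM, and the KO1 guide matched no other gene within 3 mismatches. Introns and intergenic sequence were not searched. RTRAF stood at 109 and 132 CPM (counts scaled to library size by TMM) in KO2 and at 99.3 and 131 CPM in KO1, and was not called (log2 fold change 0.08 ± 0.13, SE, edgeR adjusted p = 0.756).

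MUC3A transcript itself was at 29.9 and 24.4 CPM in KO2, at 52.5 and 28.5 CPM in KO1, and at 52.4 and 25.8 CPM in WT. The KO2 and KO1 libraries overlapped. The log2 fold change of KO2 over KO1 was −0.52 ± 0.18 (SE, 2 libraries in each group, adjusted p in edgeR = 0.0971), with ratios of −0.81 between the HCT libraries and −0.22 between the HCT116 libraries. Without the HCT116 library of KO2 it was −0.84 and passed the threshold (edgeR adjusted p = 7.1e-06). Transcript counts can stay the same after a frameshift, so these values do not check the knockout labels, and MUC3A has close repeats and a near-identical neighbour that make its read assignment uncertain.

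Total counts per library ranged from 13638724 to 17830282, and 3 reads corresponded to 0.156 to 0.242 CPM. The colorectal epithelial keratins KRT8, KRT18 and KRT19 were abundant in the 4 knockout libraries (846 to 8103 CPM), and EPCAM, an epithelial adhesion protein, stood at 218 to 253 CPM. The summed level of 7 tested epithelial markers was 5310 and 9262 CPM in KO2 against 8735 and 15077 CPM in KO1. Of these 7, 0 were called higher and 4 lower (57.1%, against 5.65% of all genes). Other intestinal markers were close to absent over the 4 knockout libraries, with 4 reads of VIL1, 15 of CDH17 and 1 of CDX1. CDX2, an intestinal transcription factor, stood at 22.6 and 43.6 CPM in KO2 against 14.3 and 33.1 CPM in KO1. Of 13 leukocyte markers 5 were tested, with a summed level of 20.2 and 27.2 CPM in KO2 against 37.5 and 34.8 CPM in KO1, and 1 of them, CD68, was called (lower in KO2). PTPRC, which marks leukocytes in general, had 1 read over the 4 knockout libraries. Of 11 fibroblast markers 3 were tested, with a summed level of 74.9 and 65.7 CPM in KO2 against 77.6 and 51.1 CPM in KO1, and DCN, decorin, had 0 reads in the knockout libraries. Of 10 markers of HEK293T, the cells that packaged the virus, 7 were tested, of which ZIC2 and PAX2 were called higher and CHD5 lower in KO2. Their summed level was 159.7 and 216 CPM in KO2 against 141 and 264 CPM in KO1, with 0 reads of NEFL in the knockout libraries. The share of these 7 called was 42.9%, against 10.0% of all genes. The part of such markers in the results below was not tested. In bulk libraries, fewer cells of a kind and less RNA per cell cannot be told apart.

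KO2 differed from KO1 at 1253 of 12470 genes, with 549 higher and 704 lower. This is 10.0% of the genes tested, with 4.40% higher and 5.65% lower, in edgeR's two-sided quasi-likelihood test with the name prefix as a pairing block and a Benjamini-Hochberg adjusted p under 0.05. A gene past this threshold is named called below. Without the block, edgeR called 0 genes (0%), with 505 at an unadjusted p under 0.05, and DESeq2 called 119, so every edgeR call below rests on treating libraries of one prefix as a pair. Libraries of one prefix deviated together. Across genes, the deviations of libraries from their group mean had a correlation of 0.797 between KO2 and KO1, and the biological coefficient of variation was 0.118 with the block and 0.381 without it. All 1253 called genes had a ratio of the same sign in the HCT and the HCT116 libraries. A call in the paired fit favours this, so it is no separate support. Both KO2 libraries lay outside both KO1 libraries for 3063 of all 12470 genes (24.6%), and for 929 of the 1253 called.

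**Figure D1:**
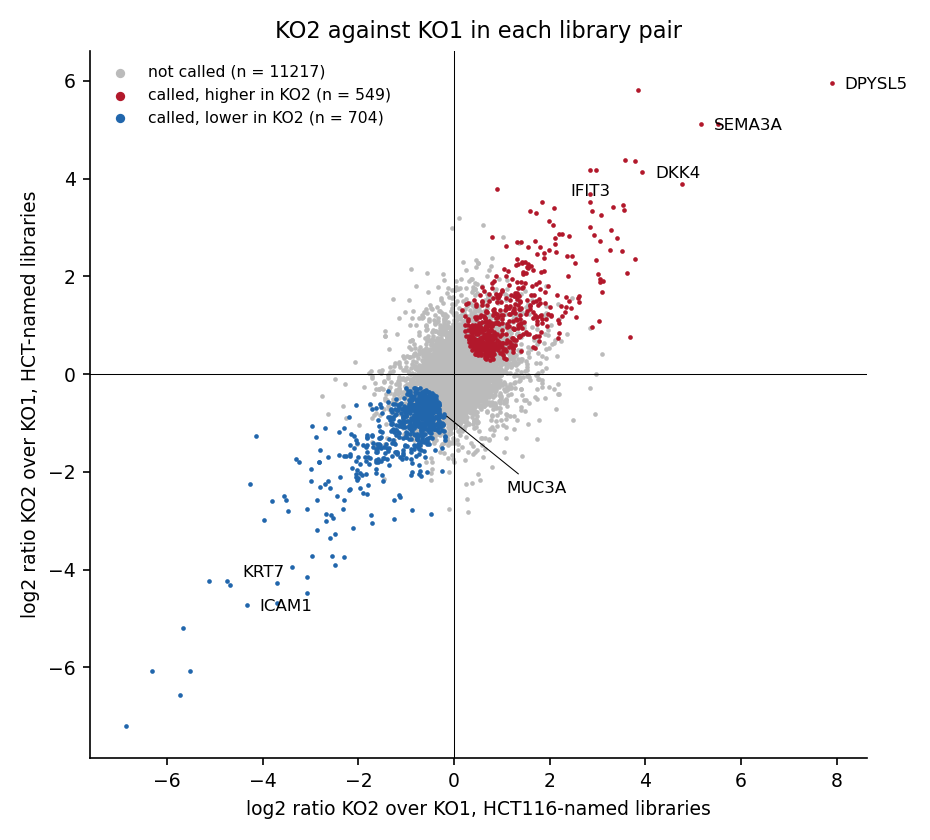
Each point is 1 of 12470 genes, placed by its log2 ratio of KO2 over KO1 in the HCT116-named libraries (horizontal) and in the HCT-named libraries (vertical). The 549 genes called higher (red) and the 704 called lower (blue) lie in the quadrants where both ratios have the same sign. A call in the paired fit favours this. MUC3A lies among the genes not called (grey).

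Most differences were small and a minority were very large. The median absolute log2 fold change was 0.22 over all genes and 0.87 over the called ones, and 146 called genes differed by more than 2 log2 units, of which 71 were higher and 75 lower in KO2. The share called was similar along the range of expression, at 9.10% in the fifth of genes with fewest reads and 11.0% in the fifth with most. The calls moved with each knockout library. The number called was 352 without the HCT library of KO1, 811 without its HCT116 library, 1949 without KO2's HCT library and 3204 without KO2's HCT116 library. In these fits the lone library of a group is assumed to vary like the others. The counts called in gene lists moved with them, so the counts without the HCT library of KO1, usually the fewest, and without the HCT116 library of KO2, usually the most, are given beside most lists. Of the 1253 genes, 299 were called in each of the 6 fits that leave out 1 library.

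The genes with the largest rises in KO2 among those averaging a log2 CPM of at least 1 included a guidance cue, adhesion proteins and secreted factors. SEMA3A, a secreted guidance cue that signals through neuropilins and plexins, stood at 157 and 92.8 CPM in KO2, against 4.39 and 2.46 CPM in KO1 and 23.3 and 5.49 CPM in WT. Its log2 fold change of KO2 over KO1 was 5.25 ± 0.29 (SE, 2 libraries in each group, adjusted p in edgeR = 7.0e-07), and both KO2 libraries were far above all 4 others. DPYSL5, a cytosolic protein of the collapsin response mediator family, which relays semaphorin signals, stood at 33.0 and 31.7 CPM in KO2, against 0.399 and 0 CPM in KO1 and 40.02 and 42.5 CPM in WT. For DPYSL5, KO1 was the group that stood apart from the other 2. Its fitted log2 fold change was 7.19 ± 0.39 (SE, edgeR adjusted p = 7.0e-07), a value that depends on the prior count because KO1 had so few reads.

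DKK4, a secreted Wnt inhibitor, reached 10.4 and 7.82 CPM in KO2 and stayed below 0.5 CPM in the libraries of KO1 and WT (log2 fold change 4.40 ± 0.40, SE). DSC3, a desmosomal cadherin of stratified epithelia, was at 50.3 and 34.9 CPM in KO2, 3.26 and 1.15 CPM in KO1, and 14.2 and 11.6 CPM in WT. The cargo receptor LMAN1, which carries glycoproteins from the endoplasmic reticulum to the Golgi, was at 170.3 and 86.3 CPM in KO2, 17.8 and 10.2 CPM in KO1, and 76.5 and 45.1 CPM in WT. Both WT libraries of DSC3 and LMAN1 lay between the knockouts. ADGRF1, an adhesion G protein-coupled receptor, was 10.5-fold higher in KO2, MAL2, a protein of apical transcytosis, 8.30-fold, and F10, coagulation factor X, 8.13-fold. DHRS2, a short-chain dehydrogenase, was at 58.7 and 74.0 CPM in KO2, against 5.72 and 9.85 CPM in KO1, and KO1 was close to WT there (5.43 and 8.64 CPM). The opposite held for ZNF585B, a zinc finger gene, with 13.0 and 7.62 CPM in KO2, 1.06 and 0.539 CPM in KO1, and 13.8 and 7.02 CPM in WT.

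The largest falls took in adhesion molecules, a keratin and enzymes. ICAM1, the ligand of leukocyte integrins and an NF-kB target, stood at 0.678 and 0.961 CPM in KO2, against 21.3 and 22.01 CPM in KO1 and 16.4 and 13.3 CPM in WT. Its log2 fold change was −4.74 ± 0.28 (SE, edgeR adjusted p = 9.7e-07), and KO2 was the group that stood apart. KRT7, a simple-epithelium keratin, stood at 2.50 and 5.49 CPM in KO2, against 52.5 and 144 CPM in KO1 and 13.6 and 36.4 CPM in WT. Its log2 fold change was −4.57 ± 0.18 (SE, edgeR adjusted p = 6.1e-08), with WT between the knockouts. NECTIN3, an adherens junction protein, was 11.0-fold lower in KO2. CYP24A1, which inactivates vitamin D, was at 58.6 and 43.7 CPM in KO2, 429 and 278 CPM in KO1, and 357 and 171 CPM in WT.

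DIAPH2, a formin that nucleates actin, PLPP3, a lipid phosphate phosphatase, and ARHGDIB, which holds small GTPases in their inactive form, were 8.88-fold, 8.34-fold and 7.65-fold lower in KO2. SLC1A3, a glutamate transporter, stood at 11.1 and 5.97 CPM in KO2, against 63.3 and 33.2 CPM in KO1 and 66.1 and 39.6 CPM in WT. WNT7A, a Wnt ligand, was 10.3-fold lower and TNFSF18, a cytokine of the tumour necrosis factor family, 8.17-fold lower. ALPG and ALPP, alkaline phosphatases of placental type, were 9.56-fold and 6.79-fold lower, but their sequences are so alike that the gene of origin of their reads is uncertain. For ALPP the level was 1.10 and 2.81 CPM in KO2, 4.12 and 27.9 CPM in KO1, and 0.646 and 1.78 CPM in WT, so KO1 was the group that stood apart. The 24 genes with the largest rises and falls all kept their call in each fit that left out 1 library. Choosing large changes among called genes with separate libraries favours this.

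**Figure D2:**
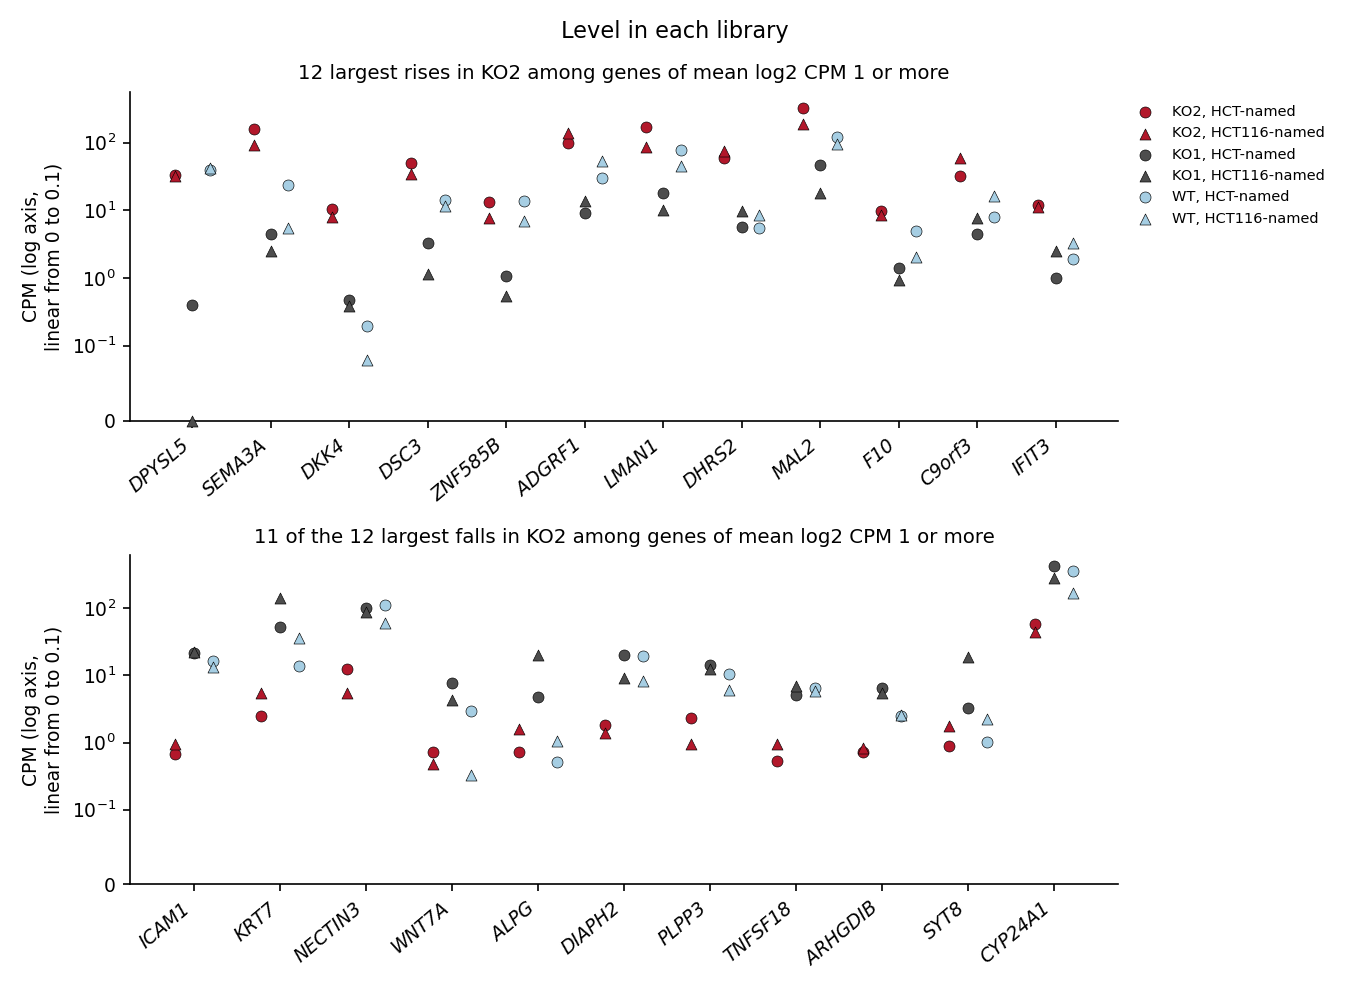
CPM in each of the 6 libraries for the 12 genes with the largest rises (upper panel) and 11 of the 12 with the largest falls (lower panel) in KO2 over KO1, on an axis that is logarithmic above 0.1. Red, dark grey and light blue points are KO2, KO1 and WT, circles are HCT-named and triangles HCT116-named libraries. The KO2 points of SEMA3A lie at 157 and 92.8 CPM and those of ICAM1 at 0.678 and 0.961 CPM, on opposite sides of the other groups.

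A few genes were detected in one knockout and had at most 3 reads over both libraries of the other. There were 9 such genes for KO2 and 10 for KO1, each called by edgeR. Choosing genes by these same counts favours a call, so the calls are no separate support. In KO2, RERG, a Ras-related GTPase, had 174 and 87 reads, against 2 and 0 in KO1 and 14 and 2 in WT, a depth-scaled ratio of 108 with a 95% exact (Clopper-Pearson) interval of 29.7 to 899.8. SCN9A, a voltage-gated sodium channel, had 142 and 26 reads in KO2 and 0 in KO1, at least 46.5-fold higher against a floor of 3 reads over the group. CLEC2B, a C-type lectin, had 75 reads over both libraries in KO2 and 0 in KO1, at least 20.8-fold higher. ADAM28, a metalloprotease, had 64 reads in KO2 and 1 in KO1, a ratio of 53.2 with an interval of 9.21 to 2132, and lost its call without the HCT library of KO1 (edgeR adjusted p = 0.113). WT had few reads of these 4 genes as well, from 1 for SCN9A to 16 for RERG.

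In the other direction, MAP6, a microtubule-stabilising protein, had 1 read in KO2 against 608 in KO1, a KO1 over KO2 ratio of 732 with an interval of 131 to 28960. TUSC3, a subunit of the oligosaccharyltransferase, had 1 read in KO2 against 264 in KO1 (ratio of KO1 over KO2 318, interval 56.6 to 12601). TCF21, a mesenchymal transcription factor, had 0 reads in KO2 against 279 in KO1, at least 112-fold lower, and NRG1, a ligand of ERBB3 and ERBB4, had 0 against 158, at least 63.4-fold lower. WT had 314 reads of MAP6, 107 of TUSC3, 37 of NRG1 and 19 of TCF21. PRKAA2, one of the catalytic subunits of the energy sensor AMPK, was also close to absent in KO2, at 0.209 and 0 CPM, against 22.8 and 10.5 CPM in KO1 and 23.7 and 7.59 CPM in WT. These intervals and floors cover counting error only.

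**Figure D3:**
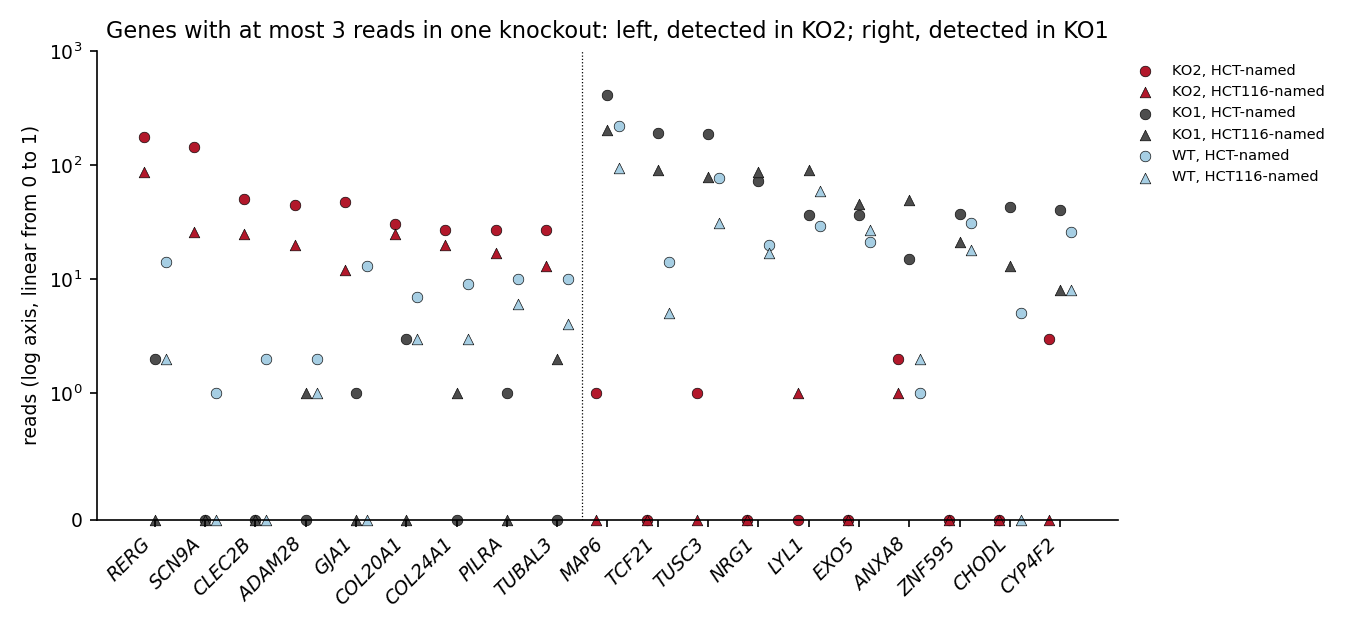
Reads per library for the 9 genes with at most 3 reads over both KO1 libraries (left of the dotted line) and the 10 genes with at most 3 reads over both KO2 libraries (right of it), on an axis that is logarithmic above 1. Red, dark grey and light blue points are KO2, KO1 and WT. MAP6 has 1 read in KO2 and 608 in KO1, and RERG 261 in KO2 and 2 in KO1.

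Interferon-stimulated genes were higher in KO2 as a group. Interferons bind cell-surface receptors and act through a transcription factor complex that includes STAT2 and IRF9 and switches on antiviral effector genes through a DNA motif, the interferon-stimulated response element. Of 44 genes of the list tested, 29 were called higher and 0 lower by edgeR, against 4.40% and 5.65% of all genes (34 higher and 0 lower at an unadjusted p under 0.05, and 25 higher and 0 lower by DESeq2 with the block). Of the 44, 43 had a positive log2 fold change, with a median of 0.98, against 0.00 over all genes. The median ratio was 1.12 between the HCT and 0.67 between the HCT116 libraries. Set against WT, the median log2 fold change of these genes was 0.94 in KO2 and 0.01 in KO1, comparisons that share the WT libraries.

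IFIT1, which binds viral RNA, stood at 42.5 and 26.5 CPM in KO2, against 9.38 and 9.003 CPM in KO1 and 9.63 and 7.59 CPM in WT (log2 fold change of KO2 over KO1 1.88 ± 0.20, SE, edgeR adjusted p = 9.2e-05). IFIT3, a partner of IFIT1, was at 11.8 and 11.3 CPM in KO2 and at 0.998 and 2.54 CPM in KO1. PARP10 and PARP9, which are ADP-ribosyltransferase family members, were 6.23-fold and 3.76-fold higher, and the mitochondrial protein IFI6 was 3.11-fold higher. The KO1 and WT libraries of IFIT1 overlapped. The RNA sensor IFIH1 was at 27.9 and 13.3 CPM in KO2, against 9.18 and 5.46 CPM in KO1. STAT2 rose less, by a log2 fold change of 0.51, and ISG15 (0.38), IFITM3 (0.33) and IRF7 (0.06) were not called. The number called higher was 9 without the HCT library of KO1 and 24 to 33 in the other fits that left out 1 library, and 8 by DESeq2 without the block. The 4 list members with the smallest p, PARP10, IFI6, IFIT1 and PARP9, kept their call in each fit that left out 1 library. Choosing members by p favours this.

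The promoters of list members were searched for the core of the response element, written as GAAA, any 2 bases and GAAA again, on either strand, in the 250 bases before the annotated gene start (RefSeq, GRCh38.p14). The motif was present in 206 of 9834 tested genes with a promoter entry (2.09%), in 20 of 34 list members (58.8%) and in 15 of the 24 list members called higher (62.5%). Outside the list it was in 12 of 374 genes called higher (3.21%), and among all genes called lower it was in 6 of 527 (1.14%). The stretches around the motif in 4 called members are shown, on the strand of the gene, because they hold the motif counted here. The capitals mark a single match in each stretch. The promoters held 3 matches for IFI6 and IFIH1 and 2 for IFIT1 and IFIT3. Other matches are left in lower case, as in the IFIT1 stretch. The motif reads as TTTC, 2 bases and TTTC where it lies on the other strand:
IFI6: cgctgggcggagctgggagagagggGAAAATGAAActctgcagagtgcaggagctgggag
IFIT1: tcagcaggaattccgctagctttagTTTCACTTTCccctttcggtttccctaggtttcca
IFIT3: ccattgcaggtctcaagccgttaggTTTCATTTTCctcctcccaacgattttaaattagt
IFIH1: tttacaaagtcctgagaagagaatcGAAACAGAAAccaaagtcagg
They lie at chr1:27672314-27672373 (minus strand, IFI6), chr10:89392482-89392541 (plus strand, IFIT1), chr10:89327816-89327875 (plus strand, IFIT3) and chr2:162318685-162318730 (minus strand, IFIH1). A match describes the letters in this window and is not a measured binding site.

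Antiviral deaminases and antigen presentation genes, which interferon also induces, were examined beside this list. Of 5 APOBEC3 cytidine deaminase genes tested, 3 were called higher (60.0%, against 4.40% of all genes) and 0 lower by edgeR. APOBEC3G, which restricts retroviruses, was at 31.1 and 19.97 CPM in KO2, against 4.12 and 4.08 CPM in KO1 and 2.33 and 1.53 CPM in WT. APOBEC3F was 2.99-fold and APOBEC3C 1.96-fold higher in KO2, and APOBEC3C lost its call without the HCT library of KO1 (adjusted p = 0.125). Of 20 listed genes of HLA class I and antigen processing, only 8 were tested. HLA-E and TAP2 were left out, with 3 reads and 1 read in the knockout whose comparison lists them. The actin-binding protein gene ACTN4 and the ribosomal protein gene RPS25 were left out in the same way, with 4 reads and 1 read. Whether such counts reflect low expression was not tested. Of the 8, B2M, the light chain of class I, the peptidase ERAP1 and the class I transactivator NLRC5 were called higher, by log2 fold changes of 0.49, 0.88 and 0.84. This is 37.5%, against 4.40% of all genes, and 0 were lower. The number called higher was 7 without the HCT116 library of KO2, and without the HCT library of KO1 it was 0, with adjusted p of 0.397 for B2M, 0.706 for ERAP1 and 0.342 for NLRC5. Of the 5 leukocyte markers tested, 1 had a positive log2 fold change.

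Transcripts of the mitochondrial genome, which encodes subunits of the respiratory chain and of ATP synthase, took a larger share of counts in KO2, at 8.90% and 6.95%, than in KO1, at 5.94% and 4.201% (5.34% and 4.84% in WT). Of 13 genes, 5 were called higher (38.5%, against 4.40% of all genes) and 0 lower by edgeR. All 13 had a positive log2 fold change, and the median was 0.63. MT-CYB, of complex III, was at 5775 and 5359 CPM in KO2 against 3537 and 3121 CPM in KO1, and MT-ND1, of complex I, was 1.83-fold higher. MT-CO3, of cytochrome oxidase, was at 9746 and 11877 CPM in KO2 against 5784 and 7158 CPM in KO1. The number called was 0 without the HCT library of KO1, 1 without its HCT116 library, 8 without the HCT library of KO2, and 8 by DESeq2 with the block. MT-CYB without either KO1 library had adjusted p of 0.131 and 0.167. CYB5B, a cytochrome b5 of the mitochondrial outer membrane encoded in the nucleus, was 1.96-fold higher and lost its call without the HCT library of KO1 (adjusted p = 0.088).

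More FGF and BMP genes were called lower than higher in KO2, and 10 were not called. Of 21 FGF and BMP ligands, receptors and feedback genes tested, 2 were called higher and 9 lower by edgeR, with a median log2 fold change of −0.40. These are 9.52% and 42.9%, against 4.40% and 5.65% of all genes. BMP4, a ligand, was at 261 and 349 CPM in KO2, against 646 and 1025 CPM in KO1 and 477 and 543 CPM in WT. SMAD6, an inhibitory SMAD induced by BMP, was 3.38-fold lower and SMAD7 had a log2 fold change of −1.52. FGF19, a secreted FGF, was 2.17-fold lower and the decoy receptor FGFRL1 1.70-fold lower, while FGF9 and FGF2 were higher, by log2 fold changes of 1.72 and 1.64. The counts were 0 higher and 7 lower without the HCT library of KO1, and 3 higher and 12 lower without the HCT116 library of KO2. BMP4, SMAD6, FGF19 and FGFRL1, the called members with the smallest p, kept their call in each fit that left out 1 library. Choosing them by p favours this.

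YAP and TEAD target genes, which respond to the Hippo pathway and to cell adhesion, had 1 member called higher and 11 lower among 26 tested (edgeR), with a median log2 fold change of −0.28. These are 3.85% and 42.3% of the list, against 4.40% and 5.65% of all genes. F3, tissue factor and the initiator of coagulation, was at 17.5 and 15.4 CPM in KO2, against 83.4 and 100.03 CPM in KO1 and 36.3 and 34.9 CPM in WT. IGFBP3, an IGF-binding protein, was 5.40-fold lower, the angiomotin family member AMOTL2 2.83-fold and the receptor kinase AXL 2.09-fold. The exception was WWTR1, which encodes TAZ itself, with a log2 fold change of 0.76. The counts were 0 higher and 6 lower without the HCT library of KO1, 2 and 12 without the HCT116 library of KO2, and 4 and 10 without its HCT library. In the related list of tissue factor, plasminogen activation and thrombospondin genes, 3 of 13 were higher and 3 lower (3 and 2 without the HCT library of KO1, 3 and 3 without the HCT116 library of KO2). In the fit of all 6 libraries, 23.1% of this list were higher and 23.1% lower, against 4.40% and 5.65% of all genes. The higher ones included PLAT, tissue-type plasminogen activator (75.0 and 53.7 CPM in KO2, against 23.8 and 21.4 CPM in KO1), and TFPI, the inhibitor of tissue factor (3.02-fold). THBS1, the matrix protein thrombospondin, was 4.08-fold lower.

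Among 34 immediate early and MAPK feedback genes tested, 3 were called higher and 8 lower by edgeR (8.82% and 23.5%, against 4.40% and 5.65% of all genes). The Kruppel-like factors KLF4 and KLF2 were 5.27-fold and 3.43-fold lower in KO2, and FOSL2, an AP-1 subunit, 3.25-fold lower. EPHA2, an ephrin receptor, was at 216 and 264 CPM in KO2, against 603 and 537 CPM in KO1 and 452 and 380.1 CPM in WT. JUN was higher, with a log2 fold change of 0.87. Without the HCT116 library of KO1, 0 were higher and 9 lower, and without its HCT library 1 was higher and 6 lower. Leaving out KO2's HCT library gave 8 higher and 7 lower, and leaving out its HCT116 library gave 2 and 13. Of 14 EGF receptor family genes, NRG1 and TGFA were lower, and BTC, EGFR and EREG higher (35.7% called, against 10.0% of all genes). TGFA was at 75.2 and 49.3 CPM in KO2 against 204 and 82.7 CPM in KO1. Without the HCT library of KO1 the calls of TGFA (adjusted p = 0.0621), BTC (0.201), EGFR (0.238) and EREG were lost, which left 0 higher and 1 lower. Leaving out KO2's HCT116 library gave 3 of each.

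Cyclin D1 was lower in KO2, and few other cell cycle genes were called. CCND1, its gene, which drives entry into S phase, was at 400.1 and 359 CPM in KO2, against 1127 and 990.2 CPM in KO1 and 608 and 495 CPM in WT (log2 fold change of KO2 over KO1 −1.48 ± 0.14, SE, edgeR adjusted p = 3.0e-05). Both WT libraries lay between the knockouts. Of 20 G1 cyclins, CDKs and their inhibitors, 0 were called higher and 3 lower by edgeR, with 1 lower without the HCT library of KO1 and 3 higher and 6 lower without the HCT116 library of KO2. Of 35 genes of G2 and mitosis, ANLN alone was called (lower, log2 fold change −0.52), while 2 of 35 had a positive value and the median was −0.23. ANLN lost its call without either KO1 library (adjusted p = 0.346 and 0.12), and 14 of the list were lower without the HCT library of KO2. Of 34 DNA replication genes 0 were called by edgeR or by DESeq2 with the block, with 2 at an unadjusted p under 0.05, and the pairs went opposite ways, with a median ratio of 0.28 between the HCT and −0.26 between the HCT116 libraries. Of these, 13 were called higher without the HCT116 library of KO2 and 13 lower without its HCT library. Of 29 p53 targets tested, 0 were called higher and 4 lower, with a median of −0.20 (15 lower without the HCT116 library of KO2). Called were 15.0% of the G1 list, 2.86% of the G2 and mitosis list and 13.8% of the p53 targets, against 10.0% of all genes. PLK2, a p53-induced kinase, was at 87.9 and 99.5 CPM in KO2, against 313 and 391 CPM in KO1 and 169.7 and 136 CPM in WT. CDKN1A, the cell cycle inhibitor p21, was 1.79-fold lower, with an adjusted p of 0.0823 without the HCT library of KO1, where only PLK2 remained called.

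Genes of PI3K, Akt and mTOR signalling, the pathway in the study's title, were called at a share close to that of all genes, with 1 of 37 higher and 3 lower (10.8%, edgeR). DDIT4, a stress-induced inhibitor of mTORC1, was at 117 and 116 CPM in KO2, against 391 and 215 CPM in KO1 and 318 and 154 CPM in WT. PIK3R1, the regulatory subunit of PI3K, was 2.14-fold lower in KO2, FOXO1, a transcription factor restrained by Akt, 2.30-fold lower, and SESN3, which inhibits mTORC1, 3.52-fold higher. FOXO1 lost its call without the HCT library of KO1 (adjusted p = 0.244). The kinase genes AKT1, AKT2 and MTOR were not called. Without the HCT116 library of KO2, 5 of the list were higher and 10 lower, and without the HCT library of KO1, 1 was higher and 2 lower. Of 11 genes of AMP-activated protein kinase and its upstream kinases, 0 were higher and 3 lower, namely PRKAA2, PRKAG2 (1.76-fold) and CAB39 (1.46-fold). The share lower was 27.3%, against 5.65% of all genes. Without the HCT library of KO1 only PRKAA2 was called, with adjusted p of 0.0585 for PRKAG2 and 0.255 for CAB39. CAB39 was also lost without KO1's HCT116 library (adjusted p = 0.145).

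More epithelial structure genes were called lower than higher in KO2. Of 27 keratin, desmosome and hemidesmosome genes tested, 3 were called higher and 9 lower by edgeR, with a median log2 fold change of −0.39. These are 11.1% and 33.3%, against 4.40% and 5.65% of all genes. Besides KRT7, KRT80 (4.96-fold) and LAMB3, a chain of laminin-332 (3.03-fold), were lower, and KRT8, KRT18 and KRT19 had log2 fold changes of −0.75, −0.78 and −0.68. The higher ones were DSC3, the desmosomal cadherin DSC2 (log2 fold change 1.26) and KRT5 (1.79), a keratin of basal cells. Without the HCT library of KO1, 2 were higher and 5 lower, without its HCT116 library 3 and 6, and without the HCT116 library of KO2 3 and 11. In the list of epithelial-mesenchymal transition and invasion, 5 of 28 were higher and 5 lower (35.7% called, against 10.0% of all genes). These counts were 4 and 3 without the HCT library of KO1, and 5 and 8 without the HCT116 library of KO2. VIM, the mesenchymal intermediate filament vimentin, was at 14.2 and 23.1 CPM in KO2, 4.52 and 5.08 CPM in KO1, and 10.6 and 12.7 CPM in WT. CDH1, E-cadherin, was lower by a log2 fold change of −0.46. LAMB3, THBS1 and AXL, with VIM the called members of smallest p in this list, were lower (log2 fold changes −1.60, −2.03 and −1.07). The median of the list was −0.03. EZR, ezrin, which links the membrane to actin, was at 1028 and 1091 CPM in KO2, against 2831 and 2150.3 CPM in KO1 and 2346 and 1811 CPM in WT.

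Among other mucins, MUC1, a membrane mucin of simple epithelia, was called higher, at 7.67 and 11.4 CPM in KO2 against 1.53 and 4.54 CPM in KO1, and lost its call without the HCT library of KO1 (edgeR adjusted p = 0.0861). The other 5 mucin genes tested, MUC3A included, had negative log2 fold changes and were not called. The share of mucins called was 16.7%, against 10.0% of all genes. Of 10 genes of differentiated intestinal epithelium tested, 0 were higher and 2 lower. These were CA2, a carbonic anhydrase (2.71-fold), and ELF3, an epithelial transcription factor (1.67-fold, adjusted p = 0.255 without the HCT library of KO1). Leaving out the HCT116 library of KO2 gave 1 higher and 3 lower.

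Guidance and Wnt genes held large changes in both directions. Of 42 semaphorins, axon guidance and cytoskeletal adaptor genes tested, 2 were called higher (SEMA3A and DPYSL5) and 8 lower by edgeR. The share called was 23.8%, against 10.0% of all genes, while the share called higher was 4.76%, close to the 4.40% of all genes. The lower ones included MAP6, EPHA2, the semaphorin co-receptor NRP2 (log2 fold change −1.62) and SEMA7A (−1.08). Without the HCT library of KO1, 4 were lower, without its HCT116 library 5, and without the HCT116 library of KO2, 12. Of 18 Wnt targets and feedback genes, DKK4 and AXIN2 were higher, and DKK1, CCND1 and NOTUM lower (27.8% called, against 10.0% of all genes). The counts were 1 higher and 2 lower without the HCT library of KO1, and 4 higher and 8 lower without the HCT116 library of KO2. DKK1, a secreted inhibitor of Wnt receptors like DKK4, was at 222 and 278 CPM in KO2, against 1066 and 961 CPM in KO1 and 682 and 335 CPM in WT, opposite to DKK4. AXIN2, a negative regulator of beta-catenin, was 2.32-fold higher, with an adjusted p of 0.109 without the HCT library of KO1.

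Metabolic genes were lower in KO2 where they were called, with CA9 as an exception. Of 35 glycolysis and hypoxia genes, 1 was called higher and 10 lower by edgeR, 4 had a positive log2 fold change, and the median was −0.49. The called shares were 2.86% and 28.6%, against 4.40% and 5.65% of all genes. The medians were −0.67 between the HCT and −0.07 between the HCT116 libraries. HK2, which phosphorylates glucose, was at 74.8 and 29.8 CPM in KO2 against 173 and 42.0 CPM in KO1, and the glucose transporter SLC2A3 was 3.22-fold lower. CA9, a carbonic anhydrase induced by hypoxia, was 16.3-fold higher, at 10.7 and 3.91 CPM in KO2, against 0.466 and 0.385 CPM in KO1 and 2.00 and 1.29 CPM in WT. Without the HCT library of KO1, 0 members were called lower, and CA9 kept its call. Without the HCT116 library of KO2, 22 were called lower. Of 35 cholesterol and fatty acid synthesis genes, 0 were higher and 9 lower (25.7%, against 5.65% of all genes), with a median of −0.07. INSIG1, a sterol-regulated brake on SREBP processing, was at 61.2 and 48.2 CPM in KO2 against 177 and 80.2 CPM in KO1. FASN, fatty acid synthase, was 1.70-fold lower, and lost its call without the HCT library of KO1 (adjusted p = 0.187). The number lower was 1 without the HCT library of KO1, 5 without its HCT116 library, and 14 without the HCT116 library of KO2.

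Genes of endoplasmic reticulum folding and stress had 5 members called higher and 0 lower of 27 (edgeR), with LMAN1 and SEC24D, a COPII coat subunit, the furthest changed. The share called was 18.5% here and among the NRF2 targets below, against 10.0% of all genes. SEC24D was at 129 and 61.0 CPM in KO2, against 48.4 and 20.2 CPM in KO1 and 47.1 and 22.2 CPM in WT. Both kept their call in each fit that left out 1 library, and they were the 2 members called without the HCT library of KO1, against 10 called higher and 3 lower without the HCT116 library of KO2. Of 27 NRF2 targets, 4 were higher and 1 lower (1 and 1 without the HCT library of KO1, 9 and 1 without the HCT116 library of KO2). ABCC2, an exporter of conjugates, was at 299 and 263 CPM in KO2, against 120.2 and 109 CPM in KO1, and NQO1, a quinone reductase, was 1.65-fold higher (adjusted p = 0.089 without the HCT library of KO1). In the ATF4 list of 36 genes 2 were higher and 3 lower (13.9%, close to the 10.0% of all genes). Leaving out the HCT116 library of KO2 gave 12 higher and 2 lower, and leaving out the HCT library of KO1 gave 0 and 2. The called members included CHAC1, which degrades glutathione (2.42-fold higher, adjusted p = 0.0681 without the HCT library of KO1), and EPRS, a tRNA synthetase (1.87-fold lower). In the BCL2 family BCL2L1, which encodes the anti-apoptotic BCL-XL, was at 156 and 238 CPM in KO2 against 356 and 535 CPM in KO1, and the pro-apoptotic BCL2L11 was 1.70-fold higher (adjusted p = 0.208 without the HCT library of KO1). Of 17 BCL2 family genes tested, 2 were called higher and 2 lower (23.5%, against 10.0% of all genes). Pro-apoptotic members went both ways, with PMAIP1 also called higher (log2 fold change 0.51) and BIK called lower (−0.60). Of 20 NF-kB factors and targets, 1 was higher and 2 lower (15.0%, against 10.0% of all genes), and the furthest changed was ICAM1. Without the HCT116 library of KO2, 3 were higher and 7 lower, and without the HCT library of KO1, 0 and 1.

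Zinc finger and ribosomal protein genes were called at lower shares than all genes. Of 360 zinc finger genes with ZNF symbols, 12 were called higher and 10 lower by edgeR (6.11%, against 10.0% of all genes). Without the HCT library of KO1 the counts were 2 and 5, and without the HCT116 library of KO2 they were 37 and 22. ZNF804A stood at 5.43 and 5.15 CPM in KO2 against 0.133 and 0.308 CPM in KO1, and ZNF426 at 0.313 and 0.274 CPM in KO2 against 5.72 and 3.08 CPM in KO1. Of 75 cytoplasmic ribosomal protein genes, RPL13 alone was called, at 1292 and 2393 CPM in KO2, against 2426 and 3237 CPM in KO1 and 2415 and 3874 CPM in WT. Its log2 fold change was −0.67, and its adjusted p without the HCT library of KO1 was 0.405. Leaving out KO2's HCT library gave 1 higher and 5 lower, and leaving out its HCT116 library gave 2 and 3.

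**Figure D4:**
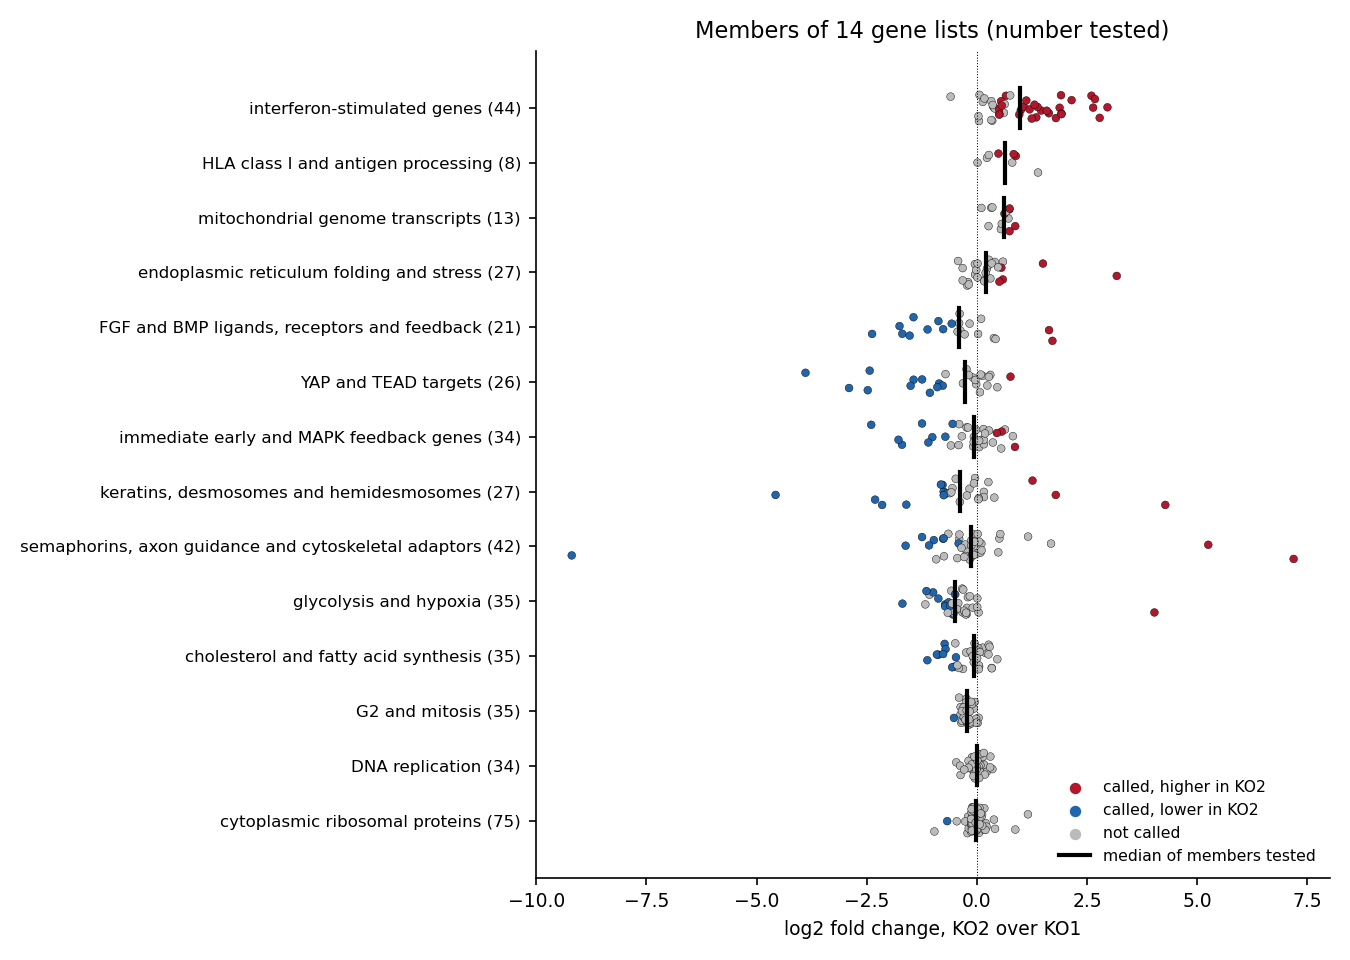
Log2 fold change of KO2 over KO1 for the tested members of 14 gene lists, 1 point per gene, with the number tested in brackets and the list's median as a bar. Red and blue points were called higher and lower by edgeR with the block and grey ones were not called. The median of the interferon-stimulated genes is 0.98 and that of the glycolysis and hypoxia genes −0.49, and the ribosomal protein genes cluster near 0.

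Neighbouring genes on chromosome 16 shifted together. All 12470 genes were placed in their GENCODE order, and medians were taken over 31 neighbours. Of 11767 such windows, 126 had a median log2 fold change past 0.3 in either direction, in 4 stretches. The number of stretches depended on the window, since 21 neighbours gave 15, among them the first one described here with the same ends. The stretches were picked by these values, so their counts and medians are a description. The stretch with the lowest median ran from WFDC1 to GAS8 at the end of the long arm of chromosome 16, where 53 of 63 genes had a negative value, 28 were called lower and 0 higher, and the median was −0.48. Its median ratio was −0.48 between the HCT and −0.37 between the HCT116 libraries. Against WT its median was −0.48 in KO2 and −0.10 in KO1. RPL13 lies in this stretch. Another stretch of chromosome 16, from RBL2 to PMFBP1, went the other way, with 122 of 152 genes positive, 23 called higher and 1 lower, and a median of 0.30. Against WT its median was 0.21 in KO2 and −0.08 in KO1. CYB5B and NQO1 lie there. The other stretches were HSD17B6 to EEF1AKMT3 on chromosome 12 (31 genes, 4 higher, 0 lower, median 0.35) and NLRP11 to MZF1 on chromosome 19 (55 genes, 3 higher, 0 lower, median 0.30).

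**Figure D5:**
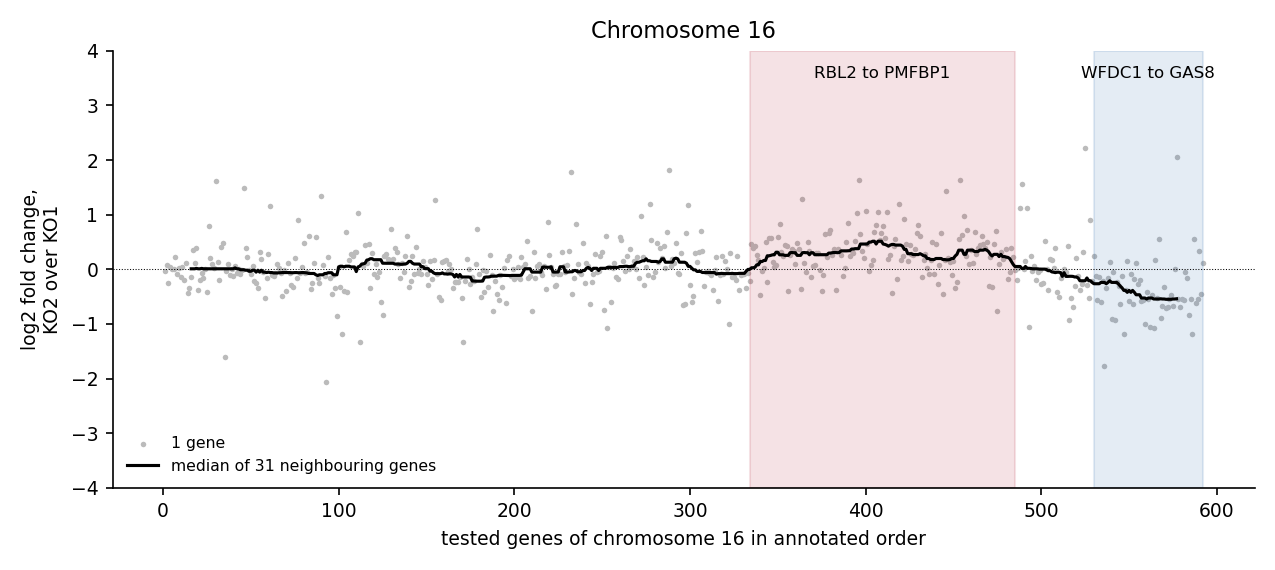
Log2 fold change of KO2 over KO1 for the tested genes of chromosome 16 in annotated order (grey points), with the median of 31 neighbouring genes as a line. The shaded stretches run from RBL2 to PMFBP1 (median 0.30) and from WFDC1 to GAS8 (median −0.48).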

How the data were processed

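The deposited tables hold read counts per gene for each library, with the authors' own comparisons beside them. Per the submitters' processing notes, HTSeq 0.6.0, STAR, DESeq2 and the build hg18 were used, with no step named for each. Use of strand in counting is not stated there. A further 40 columns of per-sample values were not used. WT counts were identical in the 2 tables.

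Tables were joined by gene, and genes with a summed count of at least 40 over the 4 knockout libraries were tested in R 4.3.3 with edgeR 4.0.16 (TMM scaling, glmQLFit and glmQLFTest) on all 6 libraries, with group and name prefix as terms and 2 residual degrees of freedom. P-values were adjusted by Benjamini-Hochberg over 12470 genes. Each SE was obtained from the log2 fold change and the square root of its F statistic. CPM uses TMM-scaled library totals, with a prior count of 2 on the log2 scale.

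The rule for this comparison, chosen with earlier results of these data known, takes the prefix as the pair. The libraries' deviations from their group mean had correlations over genes of 0.797 (KO2 and KO1), 0.831 (KO2 and WT) and 0.879 (KO1 and WT). The columns could not be matched to the labels' replicate numbers. Libraries within a group differed beyond counting noise (chi-square per degree of freedom 96.2 in KO2 and 123 in KO1).

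Named genes are MUC3A and, among genes called and averaging a log2 CPM of 1 or more, whose 2 KO2 libraries both lie on the same side of KO1, the 12 largest changes, the 6 smallest p and the 5 largest CPM differences in each direction. The called members of each list were added by smallest p, up to 4, and the 4 genes with most reads in 1 knockout only, in each direction. Other names were chosen after their values were seen. The comparison and the lists were chosen with earlier results of these data known. Alternatives were DESeq2 1.42.0, limma-voom (limma 3.58.1), other scaling and filters, the fit without the pairing block, and leaving out each library. The scripts were tested on simulated data. Some genes that the rule names are not reported here.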

Additional observations from a re-analysis of the deposited data

Results flagged for a closer look

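BMP5, which encodes a bone morphogenetic protein, is listed for KO2 and not in the deposited KO1 comparison, so it entered no test. It had 179 reads over both KO2 libraries, 112 in the HCT library and 67 in the HCT116 library, and 0 reads in WT. Every gene in the KO1 comparison had at least 1 read over its KO1 and WT libraries. A KO1 count of 0 would thus leave BMP5 out of it. Among the 429 genes listed for KO2 alone it was the 1 gene with 40 or more reads, and among the 264 listed for KO1 alone the highest sum was 12 reads.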

How the results depend on the processing

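The number of genes called depended on the pairing block and on single libraries. Without the replicate block edgeR called 0 of 12470 genes, and DESeq2 without the block called 119, with 50 higher and 69 lower. With the block, requiring an absolute log2 fold change above 1 left 512 genes, 247 higher and 265 lower. Leaving out 1 library gave 352 to 3204 genes called, 135 to 1538 of them higher and 217 to 1666 lower. The fits with 4 knockout libraries, size factors of DESeq2, another or no filter on low counts, DESeq2 with the block and limma-voom gave 1131 to 1609 genes. Of the 129 named genes 0 changed direction in any of these fits. With DESeq2 without the block 70 lost their call, without the HCT library of KO1 48, without its HCT116 library 20, and in edgeR without the block 128. The meaning of the prefix, 2 libraries a group and 2 residual degrees of freedom limit the precision, and the cause of these dependences was not tested.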

Other observations

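IFNE, which encodes interferon epsilon, a type I interferon of epithelia, was looked up after the interferon-stimulated genes had been seen. It stood at 4.12 and 3.36 CPM in KO2, against 0.599 and 0.231 CPM in KO1 and 0.453 and 1.29 CPM in WT. The log2 fold change of KO2 over KO1 was 3.12 ± 0.57 (SE, 2 libraries in each group, adjusted p in edgeR = 0.00451), and both KO2 libraries were above the other 4. The receptor genes IFNAR1 and IFNAR2 had log2 fold changes of −0.10 and 0.18, and the receptor-bound kinases JAK1 and TYK2 had 0.09 and 0.04, and none of these 4 was called.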
